A study of Homo sapiens with 16 samples.

Results

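The comparison described here is that of KMS-11-HR cells at 1% oxygen with parental KMS-11 cells at 20% oxygen, over all genes that 1 probe set names without ambiguity. Its members were chosen by the sample labels, and they are 4 of the 16 arrays of the series. The HR condition was KMS-11-HR, the hypoxia-resistant (HR) form of the line, kept for 24 hours at 1% oxygen and measured on 2 arrays. The control was parental KMS-11, kept for 24 hours at 20% oxygen and measured on 2 arrays. KMS-11 is an established line of multiple myeloma, the cancer formed by plasma cells, and carries immunoglobulin translocations that drive FGFR3, NSD2 and MAF. The other 12 arrays hold the same pair of conditions in RPMI8226 and U266, which are also myeloma lines, and in IM-9, which the labels list with the myeloma lines and which is widely described as a B lymphoblastoid line. No HR cells were measured at 20% oxygen and no parental cells at 1%, so the HR state and the oxygen level at harvest cannot be told apart. How the HR cells were derived, whether they are 1 clone, and whether the 2 arrays of a condition came from separate cultures are not given in the sources used here. The p-values below therefore measure only the spread between arrays, which may be technical.

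Cells sense oxygen through prolyl hydroxylases (EGLN proteins) that need it to mark the alpha subunits of hypoxia-inducible factor (HIF) for destruction. When oxygen is short, HIF persists and switches on genes for glucose uptake, glycolysis, angiogenic factors, collagen hydroxylation and the removal of mitochondria. Plasma cells and myeloma cells also carry a heavy load of secretory protein, which ties their growth to ribosome production, amino acid supply and folding in the endoplasmic reticulum.

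HIF binds a short core whose letters are ACGTG or GCGTG, so the stretches before the starts of 4 genes that rose in KMS-11-HR are printed first. They belong to BNIP3, P4HA1, DDIT4 and PFKFB3, which are among the members of a list of HIF targets with the largest rises and whose 250 bases before the gene start hold either run of letters. Each sequence reads 5′ to 3′ on the strand of the gene, from RefSeq GRCh38.p14. Capitals mark every match on either strand, so that CACGT and CACGC on the printed strand also count, and ACGTG and CACGT overlap where the letters are CACGTG.
BNIP3: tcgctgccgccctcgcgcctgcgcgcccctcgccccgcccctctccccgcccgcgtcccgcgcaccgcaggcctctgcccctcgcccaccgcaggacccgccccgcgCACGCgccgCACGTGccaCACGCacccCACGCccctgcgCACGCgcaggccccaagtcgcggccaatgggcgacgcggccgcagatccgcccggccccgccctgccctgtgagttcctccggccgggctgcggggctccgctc
P4HA1: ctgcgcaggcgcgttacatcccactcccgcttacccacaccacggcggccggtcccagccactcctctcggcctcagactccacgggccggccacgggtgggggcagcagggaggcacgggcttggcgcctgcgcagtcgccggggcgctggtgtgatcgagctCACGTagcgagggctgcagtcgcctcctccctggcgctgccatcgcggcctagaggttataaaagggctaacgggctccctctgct
DDIT4: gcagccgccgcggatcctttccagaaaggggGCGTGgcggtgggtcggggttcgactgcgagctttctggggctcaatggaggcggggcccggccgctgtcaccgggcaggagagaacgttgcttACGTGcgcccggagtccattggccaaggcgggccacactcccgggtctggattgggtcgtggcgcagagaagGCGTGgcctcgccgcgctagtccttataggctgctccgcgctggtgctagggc
PFKFB3: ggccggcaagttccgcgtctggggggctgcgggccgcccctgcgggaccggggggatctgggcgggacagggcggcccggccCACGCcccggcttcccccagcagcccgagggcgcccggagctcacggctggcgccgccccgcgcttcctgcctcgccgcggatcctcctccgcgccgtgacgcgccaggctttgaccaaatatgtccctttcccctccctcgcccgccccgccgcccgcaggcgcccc
The BNIP3 stretch (minus strand, chr10:131981924-131982173) held 6 matches, which began between 143 and 104 bases before the start and of which 2 overlapped as CACGTG. The P4HA1 stretch (minus strand, chr10:73096867-73097116) held 1 match, 86 bases before the start. The DDIT4 stretch (plus strand, chr10:72273674-72273923) held 3, which began 219, 125 and 53 bases before the start. The PFKFB3 stretch (plus strand, chr10:6144671-6144920) held 1, beginning 168 bases before it. Such letters are common: 43.1% of all 27305 promoters of the same length in the RefSeq table and 56.9% of the 10055 tested genes matched to it by symbol held at least 1 match. Of the genes that rose in KMS-11-HR, 131 of 242 with a promoter in the table (54.1%) held one, and of those that fell, 389 of 601 (64.7%) did. Of the 30 HIF list members that rose, 26 had a promoter in the table. Of these, 22 (84.6%) held at least 1 match and 61.5% held 2 or more, against 28.5% of the tested genes with 2 or more. These members were picked as HIF targets, so their share describes that list and not the rises as a whole. A match describes letters in the window and does not show that a factor binds there.

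The identity of the line was checked against marker genes. FGFR3, a receptor tyrosine kinase that a translocation drives in KMS-11, read 10.87 and 10.63 in KMS-11-HR and 10.90 and 10.79 in KMS-11 on the log2 intensity scale, where the parental arrays of the other lines averaged between 6.07 and 6.70. MAF read 10.21 and 10.25 in KMS-11-HR and 10.12 and 10.17 in KMS-11, and it was as high in parental RPMI8226 (10.29), so it does not set KMS-11 apart. NSD2 read 9.58 and 9.55 in KMS-11-HR and 9.70 and 9.61 in KMS-11, against parental means of 7.64 in RPMI8226, 7.96 in U266 and 8.56 in IM-9. The 3 translocation genes thus stood high in both forms of the line. Of 24 plasma cell genes on the array, 18 were above 6.27 on each of the 4 arrays, the median of all values in the table and the level used as a filter below. CD38 (5.46 and 5.66 in KMS-11-HR, 5.64 and 5.23 in KMS-11) and SLAMF7 (4.68 and 4.90 in KMS-11-HR, 4.77 and 4.64 in KMS-11) were not among them, although both are plasma cell surface markers. Of 21 B cell genes, 8 to 9 exceeded that level on an array, while MS4A1, PAX5, CD22 and CD79A stayed under it on all 4. Markers of T and NK cells, myeloid cells, stromal and endothelial cells and erythroid cells had list medians of 4.96 to 5.78 in each array, and 1 to 3 members of a list exceeded the level on an array. Across probe sets, Pearson's r was 0.996 between the 2 KMS-11-HR arrays, 0.996 between the 2 KMS-11 arrays and 0.994 to 0.995 across conditions, as a description of arrays that share probes. Array medians lay between 6.22 and 6.25, and no array of the line stood apart.

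Of 18417 genes, 12639 exceeded the filter level in at least 2 of the 16 arrays and were tested with limma. In KMS-11-HR, 308 rose (2.44% of the genes tested) and 737 fell (5.83%) at an adjusted p under 0.05, 1045 in all (8.27%), while 2920 had an unadjusted p under 0.05. With quantile normalization applied again, 359 rose and 554 fell. Among the tested genes, 24.7% had both KMS-11-HR arrays above both KMS-11 arrays and 34.4% had both below. All 308 rises and all 737 falls were among these, so for none of the genes called did the arrays of the conditions overlap. The differences were small for most genes called: the median was 0.42 for the rises and −0.35 for the falls on the log2 scale, and the median standard error (SE) of a difference was 0.09. Only 26 tested genes differed by at least 1 log2 unit, a doubling, and they comprised 20 rises and 6 falls. Between 0.5 and 1 unit there were 96 rises and 118 falls, and between 0.25 and 0.5 units 173 rises and 535 falls. The rises therefore reached further, whereas the falls were more numerous and narrower. Over all tested genes the median difference was −0.02, with the 5th percentile at −0.31 and the 95th at 0.25. Of the 12639 tested genes, 5766 were higher in KMS-11-HR, which is the base for counts of list members higher or lower. In bulk RNA, fewer cells of a type and less RNA per cell cannot be told apart.

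Calls were spread over the range of signal. From the dimmest to the brightest of 4 equal groups of tested genes by level, 58, 65, 85 and 100 rose and 74, 176, 257 and 230 fell. The median differences of these groups were 0.05, −0.02, −0.05 and −0.04 in the same order. Lists of bright genes thus start slightly below 0 and lists of dim genes slightly above it. In 53 of the rises the KMS-11 mean lay under the filter level, and in 65 of the falls the KMS-11-HR mean did, and for 52 genes called both means did. Differences of such genes rest on dim probes. Each KMS-11 array was also left out in turn. The condition then holds 1 array and the SE grows by design, so calls near the threshold are lost whichever array goes. A call lost in this way does not show that the array left out carried the result. Without KMS-11-HR replicate 1 the counts were 147 rises and 254 falls, and without KMS-11-HR replicate 2 they were 132 and 216. Without KMS-11 replicate 1 they were 149 and 246, and without KMS-11 replicate 2 149 and 231. With each of the 4 arrays left out in turn, 98 of the 308 rises and 135 of the 737 falls stayed past the threshold every time. By chromosome, the share of tested genes that fell ran from 2.85% on chromosome 19 to 11.3% on chromosome 21 (16 of 142 genes), and the share that rose from 0.843% on chromosome 20 to 4.25% on chromosome 8. The median difference of a chromosome stayed between −0.05 and 0.01.

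**Figure D1:**
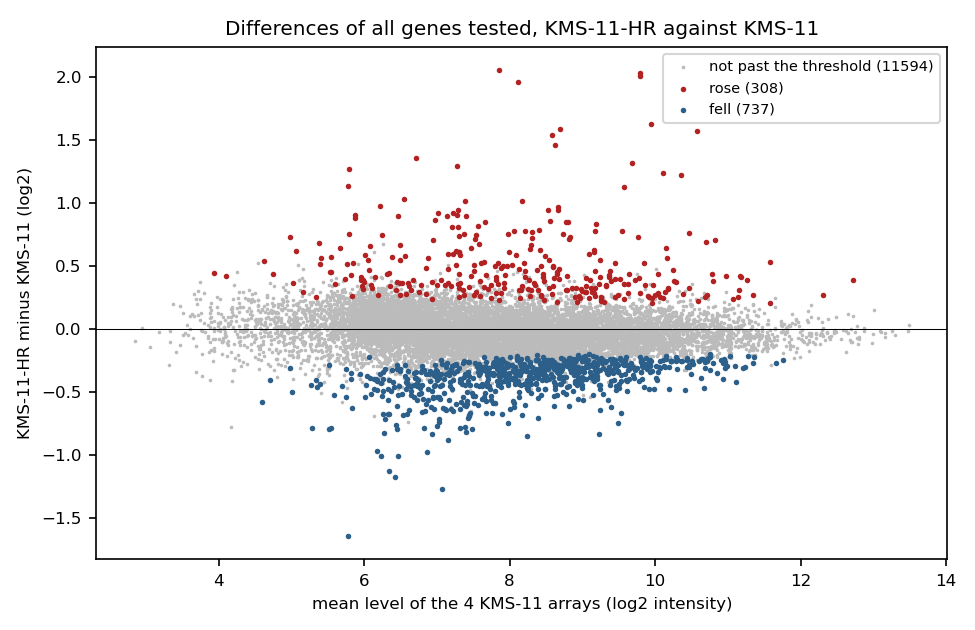
Each point is 1 of the 12639 tested genes. The horizontal axis is its mean log2 intensity over the 4 KMS-11 arrays and the vertical axis the log2 difference, KMS-11-HR minus KMS-11. The 308 rises reach 2.05 and the 737 falls reach −1.64, and most falls lie between −0.25 and −0.50.

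The genes of the hypoxia response rose almost as a group. Of 36 tested members of the HIF target list, 30 rose (83.3%, against 2.44% of all tested genes) and none fell. The median difference was 0.76, against −0.02 for all tested genes. With any 1 array left out, 25 to 27 rose, and 25 rose in every case. BNIP3, a mitochondrial receptor for mitophagy, read 8.87 and 8.89 in KMS-11-HR and 6.87 and 6.78 in KMS-11. The conditions were far apart, and the difference was 2.05 ± 0.07 (SE), or 4.15-fold (adjusted p = 2.05e-09). P4HA1, a catalytic subunit of collagen prolyl 4-hydroxylase, read 10.75 and 10.83 in KMS-11-HR and 8.76 and 8.80 in KMS-11, a difference of 2.01 ± 0.08 (SE, adjusted p = 8.29e-09). DDIT4, an inhibitor of mTOR signalling, read 9.09 and 9.10 in KMS-11-HR and 7.20 and 7.07 in KMS-11, a difference of 1.96 ± 0.10 (SE, adjusted p = 1.14e-07). In each of the 3 the lower KMS-11-HR array exceeded the higher KMS-11 array by over 1 log2 unit. NDRG1, a stress-induced growth suppressor, read 11.39 and 11.33 in KMS-11-HR and 9.79 and 9.78 in KMS-11, a 2.98-fold rise (adjusted p = 3.41e-06). AK4, a mitochondrial adenylate kinase, read 7.05 and 7.08 in KMS-11-HR and 6.07 and 6.0 in KMS-11 (2.04-fold, adjusted p = 0.000193). VLDLR, a lipoprotein receptor, read 6.69 and 6.73 in KMS-11-HR and 5.70 and 5.75 in KMS-11. The KMS-11 arrays of AK4 and VLDLR were under the filter level. VEGFA and ADM were the 2 of 17 tested angiogenic and growth factor genes that rose (11.8%), none fell, and the differences of that list ran from −0.60 to 0.83. VEGFA, which drives vessel growth, read 9.64 and 9.57 in KMS-11-HR and 8.75 and 8.79 in KMS-11. ADM, which encodes the vasodilator adrenomedullin, read 7.63 and 7.77 in KMS-11-HR and 6.86 and 6.92 in KMS-11 (1.75-fold, adjusted p = 0.000463). Smaller rises included the antagonist of MYC MXI1 (0.76 ± 0.09, SE), the hormone gene STC2 (0.55 ± 0.10) and the transcription regulator CITED2 (0.29 ± 0.08). The STC2 call was lost without KMS-11 replicate 1 and the CITED2 call without any 1 of the 4 arrays.

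Of 13 tested HIF subunits and oxygen sensors 1 was called (7.69%, against 8.27% of all tested genes). It was EGLN1, the main HIF prolyl hydroxylase, which read 8.61 and 8.77 in KMS-11-HR and 7.93 and 7.91 in KMS-11, a 1.70-fold rise (adjusted p = 8.08e-05). EGLN3, another HIF prolyl hydroxylase and a HIF target in many cells, read 6.08 and 5.90 in KMS-11-HR and 5.98 and 5.80 in KMS-11. Its arrays overlapped, lay under the filter level and differed by 0.10 ± 0.10 (SE, adjusted p = 0.58). The HIF subunits HIF1A (0.10 ± 0.09, adjusted p = 0.55) and ARNT (0.05 ± 0.07, adjusted p = 0.747) did not pass the test.

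**Figure D2:**
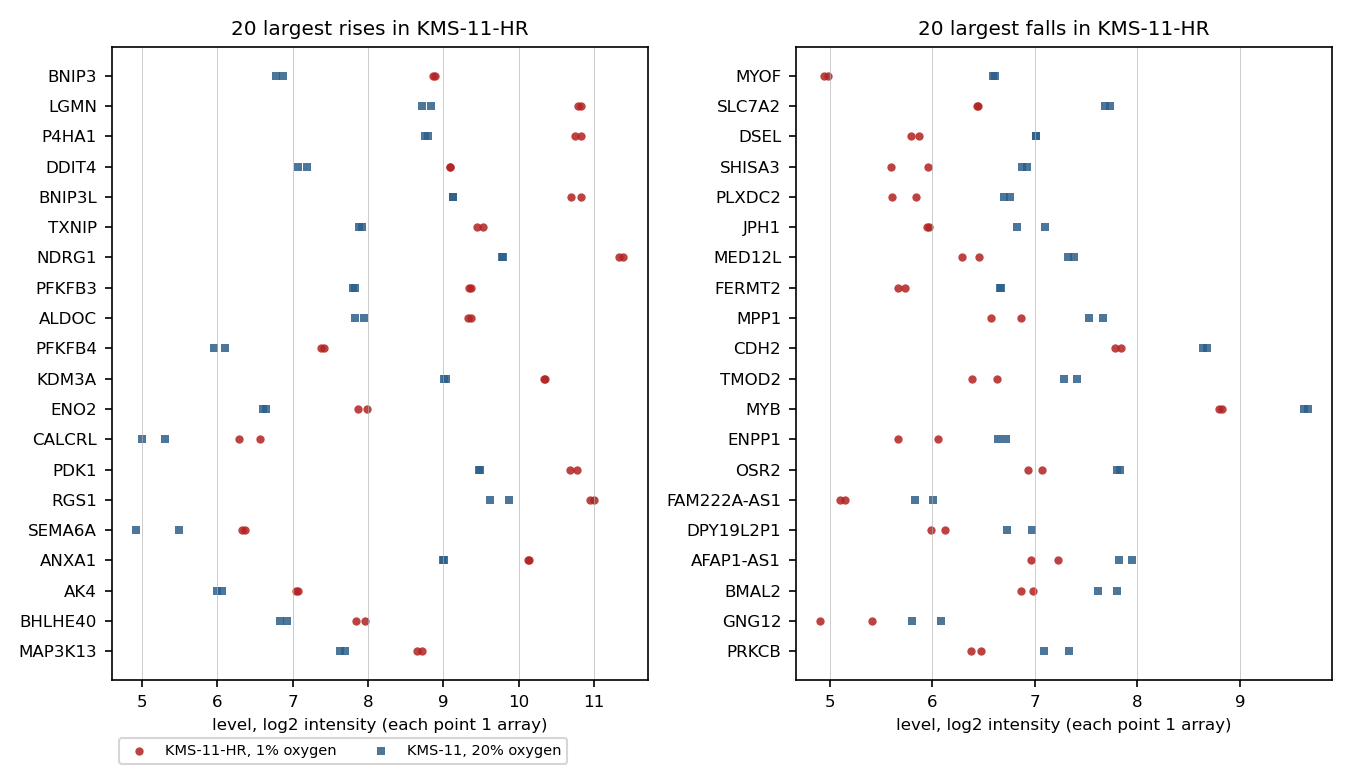
Each point is the log2 intensity of 1 array, with KMS-11-HR as circles and KMS-11 as squares. The left panel holds the 20 largest rises and the right panel the 20 largest falls. All 40 were chosen among genes called whose circles and squares do not overlap.

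Glucose uptake and glycolysis rose next to the HIF targets, several of which are also on this list. On it 65% of the tested members rose, against 2.44% of all tested genes. Of 20 tested members, 13 rose and none fell, with a median difference of 0.39, and 10 of the 13 stayed with each array left out. The bifunctional enzymes that set the level of fructose 2,6-bisphosphate, the activator of phosphofructokinase, were among the largest rises of the line. PFKFB3 read 9.36 and 9.34 in KMS-11-HR and 7.80 and 7.82 in KMS-11 (2.91-fold, adjusted p = 6.32e-08). PFKFB4 read 7.37 and 7.41 in KMS-11-HR and 5.96 and 6.10 in KMS-11 (2.57-fold, adjusted p = 1.76e-06). Both isozymes were thus higher on each KMS-11-HR array, and the KMS-11 arrays of PFKFB4 were under the filter level. The aldolase isoform ALDOC read 9.33 and 9.36 in KMS-11-HR and 7.95 and 7.82 in KMS-11 (2.76-fold, adjusted p = 1.27e-05). The enolase isoform ENO2 read 7.99 and 7.87 in KMS-11-HR and 6.64 and 6.61 in KMS-11 (2.46-fold, adjusted p = 4.04e-07), while its counterpart ENO1 differed by 0.15 ± 0.06 (SE, adjusted p = 0.161). The glucose transporter SLC2A1 read 9.15 and 9.14 in KMS-11-HR and 8.18 and 8.21 in KMS-11, and SLC2A3 read 7.69 and 7.66 in KMS-11-HR and 6.98 and 6.90 in KMS-11. PGK1, which makes ATP in glycolysis, rose by 0.53 ± 0.06 (adjusted p = 0.000142). HK2, the hexokinase bound to mitochondria, rose by 0.52 ± 0.12 (adjusted p = 0.0184), a call lost without any 1 of the 4 arrays. GAPDH differed by −0.01 ± 0.06 and LDHB by −0.02 ± 0.05, neither past the test.

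At the gate from pyruvate into mitochondria, PDK1, the kinase that switches pyruvate dehydrogenase off, read 10.68 and 10.77 in KMS-11-HR and 9.48 and 9.49 in KMS-11. It rose 2.36-fold (adjusted p = 1.99e-07). PDHA1, a subunit of the enzyme that PDK1 phosphorylates, fell by 0.24 ± 0.07 on the log2 scale (adjusted p = 0.0385), a call lost without any 1 of the 4 arrays. The other 10 of 12 tested members of this step did not pass, among them PDK3 (0.29 ± 0.09, adjusted p = 0.0752) and DLAT (−0.23 ± 0.07, adjusted p = 0.056). In glycogen metabolism, 2 of 10 tested members rose and 2 fell (40% called, against 8.27% of all tested genes). GBE1, the branching enzyme, read 8.68 and 8.64 in KMS-11-HR and 7.89 and 7.99 in KMS-11 (1.65-fold, adjusted p = 0.000529), and PGM1 rose by 0.36 ± 0.06 (adjusted p = 0.00369). PYGL, the phosphorylase that breaks glycogen down, read 6.03 and 6.06 in KMS-11-HR, under the filter level, and 6.61 and 6.61 in KMS-11. It fell by 0.57 ± 0.09 (adjusted p = 0.00277). PGM2 fell by 0.26 ± 0.06 (adjusted p = 0.0189) and kept its call only without KMS-11 replicate 1. GYS1, the synthase, differed by 0.15 ± 0.08 (adjusted p = 0.287).

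Other dioxygenases, which like the EGLN proteins use oxygen and 2-oxoglutarate, also rose in part. Of 20 tested JmjC histone demethylases, 3 rose (15%, against 2.44% of all tested genes) and none fell. KDM3A, a demethylase of histone H3 lysine 9, read 10.35 and 10.34 in KMS-11-HR and 9.01 and 9.04 in KMS-11 (2.50-fold, adjusted p = 1.34e-06). KDM4B rose by 0.46 ± 0.07 (adjusted p = 0.00223), and KDM5B rose by 0.50 ± 0.11 (adjusted p = 0.0145), a call lost without any 1 of the 4 arrays. Among 20 tested matrix genes and collagen-modifying enzymes, 4 rose and 2 fell (30% called, against 8.27% of all tested genes). Besides P4HA1, the rises were the other prolyl hydroxylase subunit P4HA2, at 7.59 and 7.62 in KMS-11-HR and 6.99 and 7.0 in KMS-11, and the lysyl hydroxylases PLOD2 and PLOD1. PLOD2 read 8.98 and 9.04 in KMS-11-HR and 8.11 and 8.01 in KMS-11 (1.92-fold, adjusted p = 4.15e-05). PLOD1 read 9.47 and 9.46 in KMS-11-HR and 8.93 and 8.78 in KMS-11 (1.53-fold, adjusted p = 0.000439). All 4 rises stayed with each array left out, whereas PLOD3 differed by 0.03 ± 0.06 (adjusted p = 0.823). Both falls were of dermatan sulfate epimerases: DSEL read 5.87 and 5.79 in KMS-11-HR, under the filter level, and 7.01 and 7.01 in KMS-11 (adjusted p = 2.47e-06). DSE read 5.33 and 5.31 in KMS-11-HR and 5.95 and 5.73 in KMS-11, all under the filter level. The DSE call (adjusted p = 0.0162) stayed only without KMS-11 replicate 2.

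The mitophagy receptors BNIP3 and BNIP3L rose. With GABARAPL1, which is also on the lysosome and autophagy list, they were the 3 of 14 tested mitophagy genes that rose (21.4%, against 2.44% of all tested genes), none fell, and all 3 stayed with each array left out. GABARAPL1, an ATG8 protein of the autophagosome, read 7.70 and 7.87 in KMS-11-HR and 7.16 and 7.13 in KMS-11 (1.56-fold, adjusted p = 0.00278). BNIP3L, a partner of BNIP3, read 10.69 and 10.83 in KMS-11-HR and 9.13 and 9.13 in KMS-11. Of 30 lysosome and autophagy genes, 5 rose (16.7%) and none fell, with a median of 0.05. LGMN, a lysosomal asparaginyl protease, stood out at 10.79 and 10.83 in KMS-11-HR and 8.71 and 8.84 in KMS-11 (4.08-fold, adjusted p = 2.05e-09). CTSD (0.30 ± 0.06) and PSAP (0.20 ± 0.06) rose by less and lost the call without any 1 of the 4 arrays, and WIPI1 (0.32 ± 0.06) stayed only without KMS-11 replicate 1. SQSTM1, an autophagy adaptor, differed by 0.09 ± 0.07 (adjusted p = 0.498).

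Genes that FOXO factors switch on when growth signalling is low formed another group of rises. Of 23 tested, 8 rose (34.8%, against 2.44% of all tested genes) and none fell, with a median of 0.29. TXNIP, an inhibitor of glucose uptake and of thioredoxin, read 9.45 and 9.53 in KMS-11-HR and 7.88 and 7.92 in KMS-11 (3.01-fold, adjusted p = 2.98e-08). CCNG2, a cyclin linked to arrest of the cell cycle, rose by 0.68 ± 0.12 (adjusted p = 0.00464), TP53INP1 by 0.89 ± 0.18 (adjusted p = 0.00985), and BCL2L11, the pro-death protein BIM, by 0.42 ± 0.07 (adjusted p = 0.00473). With 1 array left out, 3 to 5 members rose. TXNIP, GABARAPL1 and BCL2L11 stayed each time. The CCNG2 call was lost without KMS-11-HR replicate 1, the TP53INP1 call stayed only without KMS-11 replicate 1, and those of YPEL3 (0.59 ± 0.12), BTG1 (0.32 ± 0.09) and CITED2 were lost without any 1 array. ARRDC3, an arrestin relative of TXNIP, rose by 0.69 ± 0.08 (adjusted p = 0.00026), one of 3 rises among 7 arrestin relatives and glucose sensors. Among 23 genes of mTOR regulation, 13% were called, against 8.27% of all tested genes. DDIT4 and RICTOR (0.26 ± 0.07, adjusted p = 0.0475) rose. The insulin receptor substrate IRS1 fell by 0.41 ± 0.10 (adjusted p = 0.0305). The calls of RICTOR and IRS1 were lost without any 1 array. The MTOR transcript differed by −0.17 ± 0.06 (adjusted p = 0.0762).

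Rises outside these pathways included several surface and signalling genes. CALCRL, the receptor through which adrenomedullin acts, read 6.28 and 6.57 in KMS-11-HR and 5.00 and 5.30 in KMS-11 (2.42-fold, adjusted p = 0.001). SEMA6A, a transmembrane semaphorin, read 6.37 and 6.33 in KMS-11-HR and 4.92 and 5.50 in KMS-11 (2.20-fold, adjusted p = 0.000687). In both genes the KMS-11 arrays lay under the filter level. ANXA1, a phospholipid-binding annexin, read 10.13 and 10.13 in KMS-11-HR and 9.01 and 9.0 in KMS-11 (2.19-fold, adjusted p = 0.00209). MAP3K13, a kinase of the JNK pathway, read 8.71 and 8.66 in KMS-11-HR and 7.63 and 7.70 in KMS-11 (2.02-fold, adjusted p = 2.98e-07). CCR1, a chemokine receptor, read 7.64 and 7.71 in KMS-11-HR and 6.75 and 6.76 in KMS-11 (1.90-fold, adjusted p = 0.000439). In these 3 genes the arrays of a condition lay close together relative to the gap between conditions. RGS1, a brake on G protein signalling, read 10.95 and 10.99 in KMS-11-HR and 9.63 and 9.87 in KMS-11 (2.34-fold, adjusted p = 0.00998), and its call stayed only without KMS-11 replicate 2. Among 31 adhesion and homing genes, 4 rose and 3 fell: SELPLG, the ligand of selectins, rose by 0.47 ± 0.07 (adjusted p = 0.00108), and the integrin ITGAL fell by 0.35 ± 0.08 (adjusted p = 0.0167), a call that stayed only without KMS-11-HR replicate 1. The actin bundler LCP1 (0.51 ± 0.06, adjusted p = 0.000245) and the nuclear lamin LMNA (0.38 ± 0.07, adjusted p = 0.00647) also rose, among 4 rises and 2 falls of 24 membrane and cytoskeleton genes. The calls made up 22.6% of the adhesion list and 25% of the cytoskeleton list, against 8.27% of all tested genes. The LMNA call was lost without KMS-11-HR replicate 2 or without KMS-11 replicate 2.

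The largest falls were in genes of varied roles, chosen here by size. MYOF, a ferlin of membrane repair, read 4.98 and 4.94 in KMS-11-HR and 6.59 and 6.61 in KMS-11, which is 0.321 times the KMS-11 level (adjusted p = 1.14e-07). CDH2, the adhesion protein N-cadherin, read 7.78 and 7.84 in KMS-11-HR and 8.68 and 8.64 in KMS-11, 0.555 times the KMS-11 level (adjusted p = 8.2e-05). FERMT2, an activator of integrins, read 5.66 and 5.73 in KMS-11-HR and 6.66 and 6.67 in KMS-11 (adjusted p = 0.000211). MYOF and FERMT2 lay under the filter level in KMS-11-HR, and CDH2 lay above it. SLC7A2, a transporter of cationic amino acids, read 6.44 and 6.45 in KMS-11-HR and 7.73 and 7.68 in KMS-11 (adjusted p = 0.000439). MYB, a transcription factor of blood progenitors, read 8.79 and 8.83 in KMS-11-HR and 9.66 and 9.63 in KMS-11, 0.561 times the KMS-11 level (adjusted p = 5.6e-06). ENPP1, an ectoenzyme that cleaves extracellular ATP, read 6.05 and 5.66 in KMS-11-HR, under the filter level, and 6.64 and 6.72 in KMS-11 (adjusted p = 0.000478). These 3 falls stayed with each array left out. Further large falls were those of the Mediator gene MED12L (−0.98 ± 0.11), the membrane scaffold MPP1 (−0.88 ± 0.10), the tropomodulin TMOD2 (−0.83 ± 0.10), the zinc finger factor OSR2 (−0.81 ± 0.09), the clock factor BMAL2 (−0.79 ± 0.11) and the protein kinase C gene PRKCB (−0.78 ± 0.11). Of the 20 largest falls, the call of SHISA3 was lost without KMS-11-HR replicate 1, that of GNG12 without KMS-11-HR replicate 1 or KMS-11 replicate 2, and that of FAM222A-AS1 without KMS-11-HR replicate 2 or KMS-11 replicate 1. The call of DPY19L2P1 was lost without any 1 array.

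DNA replication held the most falls of the 61 gene lists examined. Of 43 tested members 28 fell and none rose, with a median difference of −0.32. Lower values were seen for 41 members, and 39 had both KMS-11-HR arrays below both KMS-11 arrays. Of all tested genes, 5.83% fell and 34.4% had both arrays below. GINS2, a subunit of the replicative helicase, read 7.75 and 7.92 in KMS-11-HR and 8.47 and 8.55 in KMS-11 (0.625 times, adjusted p = 0.000721). CDC6, which loads the helicase at origins, read 8.92 and 9.10 in KMS-11-HR and 9.52 and 9.45 in KMS-11 (adjusted p = 0.00307). MCM4, a helicase subunit, read 8.95 and 9.07 in KMS-11-HR and 9.44 and 9.47 in KMS-11 (adjusted p = 0.00197). In all 3 the KMS-11-HR arrays differed from each other by at least 0.1 log2 units. The polymerase subunit POLE2 (−0.53 ± 0.10), the licensing factor CDT1 (−0.44 ± 0.08), the origin subunit ORC6 (−0.43 ± 0.09) and MCM10 (−0.43 ± 0.06) fell too. Most of the 28 calls were lost in at least 1 of the fits that left out an array, where the SE is larger by design. POLE2 lost its call without KMS-11 replicate 2, CDT1 without KMS-11-HR replicate 1 or KMS-11 replicate 1, and ORC6 without KMS-11-HR replicate 1 or KMS-11 replicate 2.

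Genes of nucleotide supply fell by smaller amounts, with 7 of 22 tested members fallen, none risen and a median of −0.21. These falls were 31.8% of the list, against 5.83% of all tested genes. PRPS2, which makes the ribose precursor of nucleotides, fell by 0.41 ± 0.07 (adjusted p = 0.00307), and IMPDH2, which commits purines to guanine nucleotides, by 0.40 ± 0.06 (adjusted p = 0.00236). These were the 2 that stayed with each array left out, and CAD, the first enzyme of pyrimidine synthesis, fell by 0.36 ± 0.08 (adjusted p = 0.0118) but lost the call without any 1 array. In DNA repair by recombination and mismatch, 3 of 17 fell, none rose, and all 17 were lower. XRCC2 fell by 0.44 ± 0.09 (adjusted p = 0.012), RAD54L by 0.39 ± 0.10 (adjusted p = 0.0354) and BRCA1 by 0.29 ± 0.07 (adjusted p = 0.0199). XRCC2 kept its call only without KMS-11-HR replicate 2, and RAD54L and BRCA1 lost theirs without any 1 array. Mitosis genes and cyclins had a median of only −0.08, with 6 falls among 36 (16.7%). They were the phosphatases CDC25A (−0.47 ± 0.08, adjusted p = 0.00307) and CDC25B (−0.32 ± 0.06, adjusted p = 0.00427), the cyclin E gene CCNE1 (−0.46 ± 0.13, adjusted p = 0.0468), the spindle checkpoint gene MAD2L1 (−0.33 ± 0.09, adjusted p = 0.0382), and the repressors E2F7 (−0.32 ± 0.07) and E2F8 (−0.31 ± 0.06). Among bright members, TOP2A (0.03 ± 0.07), BUB1 (0.08 ± 0.07) and PLK1 (−0.09 ± 0.10) did not pass the test. With 1 array left out, 1 to 3 members fell, CDC25A each time. CCNE1 and MAD2L1 lost their calls without any 1 array, CDC25B without KMS-11-HR replicate 2 or KMS-11 replicate 1, and E2F7 and E2F8 kept theirs in 1 of the 4 cases. Among 21 tested histone genes limma called none, and 3 had an unadjusted p under 0.05.

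**Figure D3:**
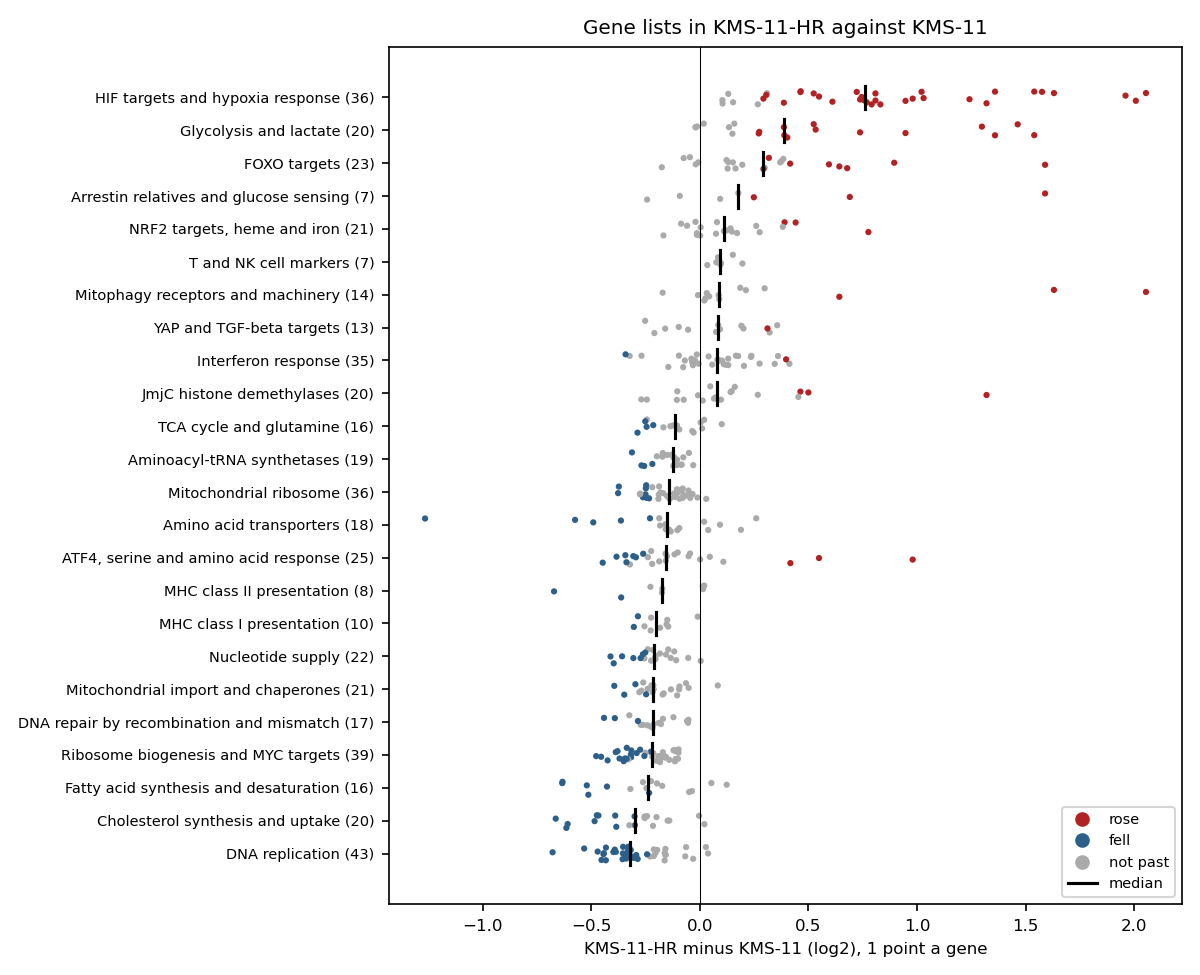
Each point is 1 tested gene of a list at its log2 difference, KMS-11-HR minus KMS-11, coloured by its call, with the number of tested members in brackets and a black bar at the median. Lists from both ends of the range of medians are shown, from 0.76 for HIF targets to −0.32 for DNA replication.

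Genes that build ribosomes were shifted down as a list. All 39 tested members were lower, 38 had both KMS-11-HR arrays below both KMS-11 arrays, 17 fell and none rose, with a median of −0.22. Of all tested genes, 34.4% had both arrays below and 5.83% fell. NOP16, a nucleolar protein, read 8.36 and 8.42 in KMS-11-HR and 8.83 and 8.91 in KMS-11 (0.718 times, adjusted p = 0.00388). NPM3, a nucleolar chaperone, read 7.36 and 7.61 in KMS-11-HR and 7.88 and 8.0 in KMS-11 (0.730 times, adjusted p = 0.00509). The helicase DDX21 (−0.39 ± 0.06, adjusted p = 0.00231) and the processome factor UTP20 (−0.37 ± 0.07, adjusted p = 0.00426) fell as well. The most abundant members, NCL (−0.10 ± 0.06), NOP58 (−0.11 ± 0.07) and NPM1 (−0.19 ± 0.07), did not pass. Between 4 and 8 members fell with 1 array left out, 4 of them in every case, and NPM3 lost its call without KMS-11-HR replicate 1 or KMS-11 replicate 2. MYC, whose protein drives such genes, read 11.48 and 11.43 in KMS-11-HR and 11.49 and 11.45 in KMS-11, with overlapping arrays and a difference of −0.01 ± 0.06 (adjusted p = 0.917). In the network of MYC partners and antagonists, 3 of 14 rose and 1 fell (28.6% called, against 8.27% of all tested genes). BHLHE40, a repressor also in the HIF list, read 7.96 and 7.84 in KMS-11-HR and 6.93 and 6.83 in KMS-11 (2.03-fold, adjusted p = 1.17e-05). MLX, the partner of MLXIP, fell by 0.34 ± 0.06 (adjusted p = 0.005), a call lost without KMS-11-HR replicate 2 or KMS-11 replicate 2.

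Genes that supply and charge amino acids were lower too. For comparison, the brighter of the 4 level groups of tested genes had medians of −0.05 and −0.04. All 19 tested aminoacyl-tRNA synthetases were lower and 4 fell (median −0.12), with VARS1 furthest at −0.31 ± 0.07 (adjusted p = 0.022), and all 4 calls were lost without any 1 array. Of 18 amino acid transporters, 5 fell (27.8%, against 5.83% of all tested genes) and none rose. SLC7A5, which brings in leucine, read 9.41 and 9.33 in KMS-11-HR and 9.88 and 9.84 in KMS-11 (0.712 times, adjusted p = 0.000237). SLC1A4, a transporter of neutral amino acids, read 7.09 and 6.99 in KMS-11-HR and 7.60 and 7.63 in KMS-11 (0.671 times, adjusted p = 0.000159). Both stayed with each array left out, as did SLC7A2, while SLC7A1 and SLC43A1 lost their calls without any 1 array. In the ATF4, serine and one-carbon list of 25, 7 fell and 3 rose (40% called, against 8.27% of all tested genes). The falls included MTHFD1 (−0.45 ± 0.07, adjusted p = 0.00213), PHGDH (−0.38 ± 0.10, adjusted p = 0.0395) and SHMT2 (−0.31 ± 0.06, adjusted p = 0.00768), enzymes of serine and folate metabolism. The rises were VLDLR and STC2, both also in the HIF list, and the factor ATF5 (0.42 ± 0.07, adjusted p = 0.0039). ATF4 itself differed by −0.10 ± 0.09 (adjusted p = 0.533). MTHFD1 and VLDLR were the members that stayed with each array left out, PHGDH lost its call without any 1 array, SHMT2 without KMS-11-HR replicate 2 or KMS-11 replicate 1, and ATF5 without KMS-11 replicate 2.

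Genes of both branches of lipid synthesis fell. Of 20 cholesterol genes 10 fell, none rose, and 19 were lower, with a median of −0.30. ACAT2, the first enzyme of the pathway, read 9.13 and 9.26 in KMS-11-HR and 9.86 and 9.85 in KMS-11 (0.631 times, adjusted p = 0.00311). SQLE, squalene epoxidase, read 9.03 and 9.16 in KMS-11-HR and 9.72 and 9.69 in KMS-11 (0.653 times, adjusted p = 0.000144). HMGCS1 read 8.27 and 8.32 in KMS-11-HR and 8.83 and 8.99 in KMS-11 (0.656 times, adjusted p = 0.000466). The feedback protein INSIG1 (−0.47 ± 0.06, adjusted p = 0.000847), CYP51A1 (−0.48 ± 0.08) and DHCR7 (−0.47 ± 0.08) fell alike, and these 6 stayed with each array left out. LSS and FDPS fell in the fit of all arrays and lost the call without any 1 of them. The regulator SREBF2 differed by −0.20 ± 0.08 (adjusted p = 0.173). Of 16 fatty acid genes, 6 fell and none rose (median −0.24). ACACA, the first committed enzyme, read 8.53 and 8.51 in KMS-11-HR and 9.0 and 9.06 in KMS-11 (0.700 times, adjusted p = 0.000129). FASN, the synthase, read 8.93 and 8.84 in KMS-11-HR and 9.44 and 9.38 in KMS-11 (0.697 times, adjusted p = 0.00213). Both and the desaturase FADS1 (−0.43 ± 0.07, adjusted p = 0.00335) stayed with each array left out. ACSS2 (−0.63 ± 0.12), which makes acetyl-CoA from acetate, and ACSL1 (−0.63 ± 0.13) fell by more but kept their calls only without KMS-11-HR replicate 2. SCD differed by −0.32 ± 0.11 (adjusted p = 0.102). Among 25 sphingolipid and phospholipid enzymes, CHKA alone fell (−0.24 ± 0.06), lost without any 1 array. That is 4% of the list, against 5.83% of all tested genes.

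Mitochondrial genes of the nucleus had median differences below 0 in each of 5 lists, and the share that fell differed between the lists. The brighter of the 4 level groups of all tested genes had medians of −0.05 and −0.04. Complex I had 1 fall among 34 (NDUFS3, −0.22 ± 0.06) and a median of −0.08, and complexes II to V 1 fall among 37 (CYC1, −0.22 ± 0.06) and a median of −0.06. Both calls were lost without any 1 array. These falls were 2.94% and 2.7% of the lists, against 5.83% of all tested genes. The mitochondrial ribosome had 8 falls among 36 (22.2%) and 35 members lower (median −0.14), of which only MRPL4 (−0.37 ± 0.06, adjusted p = 0.00263) stayed with each array left out. Import proteins and chaperones had 4 falls among 21 (19%) and 20 lower (median −0.21), with the channel subunit TIMM50 (−0.39 ± 0.06, adjusted p = 0.000983) the member that stayed. In the TCA cycle and glutamine list 4 of 16 (25%) fell, with a median of −0.11, and CS, ACO1, GOT1 and GOT2 each differed by −0.21 to −0.29. With 1 array left out at most 1 member fell.

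Secretory folding genes were also lower in part, with 6 of 30 fallen (20%, against 5.83% of all tested genes), none risen and a median of −0.11. HSPA5, the main chaperone of the endoplasmic reticulum, read 10.90 and 10.91 in KMS-11-HR and 11.29 and 11.37 in KMS-11 (0.747 times, adjusted p = 0.00263). SDF2L1, which works with it, read 7.41 and 7.38 in KMS-11-HR and 7.82 and 7.88 in KMS-11 (0.731 times, adjusted p = 0.000949). These 2 stayed with each array left out, whereas CALR (−0.26 ± 0.05), DNAJB11 (−0.28 ± 0.07), PDIA4 (−0.24 ± 0.06) and HYOU1 (−0.23 ± 0.06) lost their calls without any 1. XBP1, the factor that builds the secretory apparatus, differed by 0.03 ± 0.06 (adjusted p = 0.8). Of 29 proteasome genes limma called none, with 4 at an unadjusted p under 0.05. Of 17 heat shock genes it called 1 (5.88%, against 8.27% of all tested genes). It was the co-chaperone DNAJB4, which rose by 0.76 ± 0.08 (adjusted p = 0.00018). Of 21 NRF2, heme and iron genes 3 rose (14.3%, against 2.44% of all tested genes) and none fell. HMOX1, heme oxygenase, read 8.52 and 8.37 in KMS-11-HR and 7.64 and 7.70 in KMS-11 (1.71-fold, adjusted p = 0.00322) and stayed with each array left out. TXNRD1, thioredoxin reductase, rose by 0.44 ± 0.08 (adjusted p = 0.00414), a call lost without KMS-11-HR replicate 2 or KMS-11 replicate 1, and SRXN1 by 0.39 ± 0.08 (adjusted p = 0.0116), lost without any 1 array. NQO1, the usual NRF2 marker, differed by 0.17 ± 0.07 (adjusted p = 0.153). In the zinc list of 10, MT2A rose by 0.26 ± 0.06 (adjusted p = 0.0221), lost without any 1 array, and the zinc importer SLC39A14 fell by 0.46 ± 0.06 (adjusted p = 0.000466).

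Cell death genes moved in both directions, with 5 of 23 risen and 2 fallen (30.4% called, against 8.27% of all tested genes). Besides BNIP3, BNIP3L and BCL2L11, the pro-death gene BMF read 8.37 and 8.40 in KMS-11-HR and 7.87 and 7.72 in KMS-11 (1.5-fold, adjusted p = 0.000211). CASP8, the initiator caspase of death receptors, rose by 0.41 ± 0.07 (adjusted p = 0.005), and the effector CASP6 fell by 0.44 ± 0.09 (adjusted p = 0.00956). PMAIP1, the pro-death protein NOXA, fell by 0.30 ± 0.08 (adjusted p = 0.0416), and the survival gene MCL1 differed by 0.06 ± 0.06 (adjusted p = 0.654). CASP8 lost its call without KMS-11-HR replicate 2 or KMS-11 replicate 2, CASP6 kept its call only without KMS-11 replicate 1, and PMAIP1 lost its call without any 1 array. Among 23 p53 targets (17.4% called), TP53INP1 rose and PMAIP1, AEN (−0.32 ± 0.09) and PLK3 (−0.34 ± 0.09) fell. MDM2 differed by 0.02 ± 0.10 (adjusted p = 0.931). The calls of AEN and PLK3 were lost without any 1 array.

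Of the genes of cell identity, 5 of 22 plasma cell genes (22.7%), 3 of 18 B cell genes (16.7%) and 2 of 12 MAF and translocation genes (16.7%) were called, against 8.27% of all tested genes. The translocation genes FGFR3, MAF and NSD2 did not pass the test, with differences of −0.10 ± 0.08, 0.09 ± 0.11 and −0.09 ± 0.06. NUAK1, a kinase gene of the MAF list, read 9.24 and 9.05 in KMS-11-HR and 8.18 and 8.17 in KMS-11 (1.96-fold, adjusted p = 0.00719), a call lost without KMS-11-HR replicate 1 or KMS-11 replicate 2. IRF4, a factor on which myeloma cells depend, read 11.07 and 11.08 in KMS-11-HR and 11.40 and 11.35 in KMS-11 and fell by 0.30 ± 0.06 (adjusted p = 0.00636). Its call stayed only without KMS-11 replicate 2. POU2AF1, a B lineage coactivator, fell by 0.30 ± 0.07 (adjusted p = 0.0197), lost without any 1 array, while XBP1 and PRDM1 (0.01 ± 0.09) did not pass. Of the plasma cell genes 1 rose and 4 fell, and of the B cell genes 2 rose and 1 fell. Of 20 genes targeted by myeloma therapies limma called none, with 3 at an unadjusted p under 0.05. It also called none of the 7 T and NK cell markers tested (1 at an unadjusted p under 0.05), and none of the 2 myeloid, 5 stromal and endothelial and 3 erythroid markers (0 at that level).

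Among antigen presentation genes, all 10 tested class I members were lower and 2 fell, TAP1 (−0.30 ± 0.08, adjusted p = 0.0277) and PSMB9 (−0.29 ± 0.06, adjusted p = 0.0113), both lost without any 1 array. Of 8 tested class II members 2 fell (25%, against 5.83% of all tested genes) and none rose, with 3 higher and 5 lower (median −0.17). HLA-DPA1 read 7.36 and 7.75 in KMS-11-HR and 8.12 and 8.34 in KMS-11 (0.628 times, adjusted p = 0.00464), and HLA-DPB1 fell by 0.36 ± 0.08 (adjusted p = 0.0107). HLA-DMA (0.01 ± 0.14) and the class II regulator CIITA (0.01 ± 0.08) did not pass. HLA-DPA1 lost its call without KMS-11-HR replicate 1 or KMS-11 replicate 2, and HLA-DPB1 kept its call only without KMS-11-HR replicate 2. Probe sets of HLA genes can hold signal of near-identical relatives. Of 35 interferon response genes 1 rose, IFI44 (0.40 ± 0.10, adjusted p = 0.0331), and 1 fell, HERC5 (−0.34 ± 0.08, adjusted p = 0.016). These calls were 5.71% of the list, against 8.27% of all tested genes. IFI44 kept its call only without KMS-11 replicate 2 and HERC5 only without KMS-11 replicate 1. In the NF-kB list of 25, 12% were called. The inhibitor TNIP1 rose by 0.52 ± 0.08 (adjusted p = 0.00227) and TNFAIP3 by 0.29 ± 0.07 (adjusted p = 0.0235). NFKB1 fell by 0.29 ± 0.08 (adjusted p = 0.0364). The calls of TNFAIP3 and NFKB1 were lost without any 1 array. Among 25 cytokine genes, 8% were called. The survival kinase PIM1 rose by 0.55 ± 0.08 (adjusted p = 0.00211) and STAT5B fell by 0.36 ± 0.08 (adjusted p = 0.013). The STAT5B call was lost without KMS-11-HR replicate 2 or KMS-11 replicate 1. Of 26 MAPK feedback genes, 15.4% were called. The phosphatases DUSP5 (0.48 ± 0.08, adjusted p = 0.00322) and DUSP4 (0.35 ± 0.08, adjusted p = 0.0229) rose. The ETS factors ETV4 (−0.63 ± 0.11, adjusted p = 0.0037) and ETS2 (−0.41 ± 0.10, adjusted p = 0.0259) fell. The calls of DUSP4 and ETS2 were lost without any 1 array.

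Of 14 efflux and detoxification genes 4 were called (28.6%, against 8.27% of all tested genes). ABCB6, a mitochondrial porphyrin transporter, rose by 0.44 ± 0.11, and ABCB10 (−0.41 ± 0.08), ABCC5 (−0.27 ± 0.06) and GSTM4 (−0.44 ± 0.08) fell. ABCB6 and ABCC5 lost their calls without any 1 array, ABCB10 without KMS-11-HR replicate 2 or KMS-11 replicate 1, and GSTM4 without KMS-11-HR replicate 2. In the DNA methylation and Polycomb list of 21, 4.76% were called. UHRF1, which recruits the maintenance methyltransferase, fell by 0.39 ± 0.07 (adjusted p = 0.00467). Its call was lost without KMS-11-HR replicate 2 or KMS-11 replicate 1. Of 25 splicing genes (12% called) the kinase CLK3 rose by 0.32 ± 0.06, and SRSF7 (−0.30 ± 0.07) and DDX39A (−0.31 ± 0.07) fell. CLK3 kept its call only without KMS-11 replicate 1, and the other 2 lost theirs without any 1 array. The TGF-beta receptor TGFBR1 (0.31 ± 0.07) was the 1 call of 13 YAP and TGF-beta targets (7.69%) and stayed only without KMS-11-HR replicate 1. BHLHE40 was the 1 call of 16 circadian genes (6.25%). Of the 6 long noncoding RNAs tested, MALAT1 (0.03 ± 0.07) and MEG3 (0.02 ± 0.18) among them, limma called none, and 0 had an unadjusted p under 0.05. Of 9 reference genes, PGK1 rose, and ACTB (−0.03 ± 0.06), GAPDH, PPIA, HPRT1, TBP, YWHAZ, POLR2A and GUSB did not pass, with differences between −0.11 and 0.05.

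The response of KMS-11 was then set against that of RPMI8226, U266 and IM-9, each HR form at 1% oxygen against its own parental form at 20%. The 4 comparisons share no arrays, though they share 1 estimate of the spread. Of the 308 rises of KMS-11, 100 also rose in RPMI8226 (32.5%, where 10.7% of all tested genes rose). In U266 118 rose (38.3%, against 9.68%), and in IM-9 153 rose (49.7%, against 14.4%). The shared rises were 7.39% of the RPMI8226 rises, 9.65% of the U266 rises and 8.43% of the IM-9 rises. In KMS-11 2.44% of all tested genes rose. Of the 737 falls, 171 also fell in RPMI8226 (23.2%, where 15.3% of all tested genes fell). In U266 109 fell (14.8%, against 8.42%), and in IM-9 387 fell (52.5%, against 21.3%). The shared falls were 8.84% of the RPMI8226 falls, 10.2% of the U266 falls and 14.4% of the IM-9 falls. In KMS-11 5.83% of all tested genes fell. Of the falls, 93 rose in RPMI8226 (12.6%, against 10.7% of tested genes), 126 in U266 (17.1%, against 9.68%) and 68 in IM-9 (9.23%, against 14.4%). Of the rises, 51 fell in RPMI8226 (16.6%, against 15.3% of tested genes), 36 in U266 (11.7%, against 8.42%) and 35 in IM-9 (11.4%, against 21.3%). Of the KMS-11 rises, 83 were called risen in none of the other 3 lines, and of the falls 234 were called fallen in none. Missing a threshold in another line does not show a difference, so the KMS-11 effect was also tested against the mean effect of the other 3 lines. By that test 468 genes (3.7% of those tested) had an effect that was higher in KMS-11 and 735 (5.82%) one that was lower, 1203 in all (9.52%). With 1 of the KMS-11 arrays left out, the higher count was 250 (KMS-11-HR replicate 1), 203 (KMS-11-HR replicate 2), 224 (KMS-11 replicate 1) or 252 (KMS-11 replicate 2), and the lower count 427, 392, 384 or 398 in the same order.

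EGLN3 differed most downwards. Its effect was 0.10 in KMS-11, against 3.61 in RPMI8226, 2.33 in U266 and 2.78 in IM-9, where it rose in each, and the difference, KMS-11 minus the mean of the others, was −2.80 ± 0.11 (SE). All 4 KMS-11 arrays were under the filter level for EGLN3, so it entered the test through the lines where it is high, and its difference is given as a value only. AK4 rose in all 4 lines, by 1.03 in KMS-11, 2.32 in RPMI8226, 5.28 in U266 and 0.81 in IM-9, and its effect in KMS-11 was lower than the mean of the others (difference −1.78 ± 0.13, adjusted p = 7.2e-06). NDRG1 also rose less in KMS-11 than in the mean of the other lines (difference −0.63 ± 0.13, adjusted p = 0.00825), though more than in RPMI8226. Its effects were 1.58 in KMS-11, 1.26 in RPMI8226, 2.23 in U266 and 3.13 in IM-9. The fall of MYOF differed as well: the effect was −1.64 in KMS-11, 0.17 in RPMI8226, −0.01 in U266 and 1.33 in IM-9 (difference −2.13 ± 0.09, adjusted p = 8.36e-08). In the other direction, DDIT4 rose by 1.96 in KMS-11, 1.3 in RPMI8226 and 0.68 in U266 and fell by 0.54 in IM-9 (difference 1.48 ± 0.11, adjusted p = 9.64e-06). CALCRL rose in KMS-11 and fell by 1.13 in RPMI8226 (difference 1.47 ± 0.21, adjusted p = 0.0008). Its effects were 0.32 in U266 and 0.23 in IM-9. ENO2 rose by 1.3 in KMS-11 and 1.16 in U266, with effects of −0.11 in RPMI8226 and 0.09 in IM-9 (difference 0.92 ± 0.09, adjusted p = 3.96e-05). Of the 36 tested members of the HIF list, 10 had a higher and 5 a lower effect in KMS-11 than in the other lines' mean. Of the 38 on the array, 35 had a KMS-11-HR mean and 30 a KMS-11 mean above the filter level. Dim members could enter the test through lines where they are high. That favours a difference, so these counts are only a description. Of all tested genes, 3.7% had a higher and 5.82% a lower effect.

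**Figure D4:**
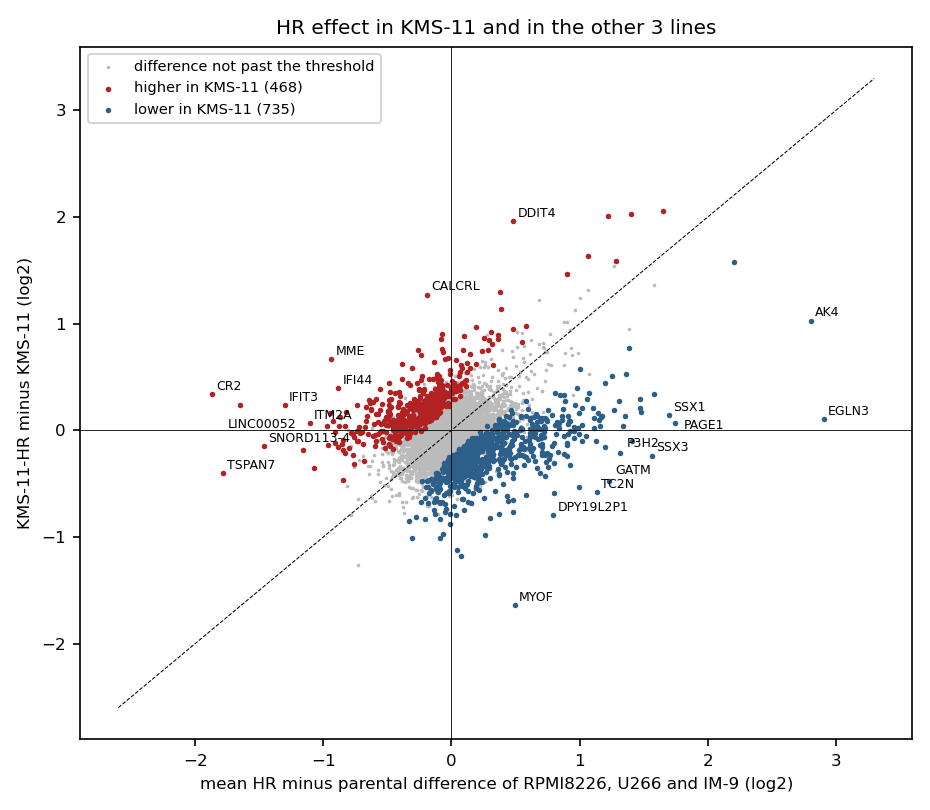
Each point is 1 tested gene. The vertical axis is the log2 difference KMS-11-HR minus KMS-11, the horizontal axis the mean of the same difference in RPMI8226, U266 and IM-9, and the dashed line marks equal effects. Coloured points differ by the test of the difference, 468 higher and 735 lower in KMS-11, and the 20 genes with the largest differences are named, EGLN3 furthest right of the line.

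Medians of several gene lists lay apart between the lines. For DNA replication the median was −0.32 in KMS-11, −0.08 in RPMI8226, 0.28 in U266 and −0.24 in IM-9, with 28 falls in KMS-11, 11 falls and 2 rises in RPMI8226, 24 rises in U266, and 25 falls and 1 rise in IM-9. In 19 of the 43 members the effect was lower in KMS-11 than in the mean of the others and in none higher. The effect was also lower for 4 of 17 DNA repair genes, 4 of 22 nucleotide supply genes and 5 of 36 mitosis genes and higher for none of them, against 5.82% of all tested genes with a lower effect. The medians of the mitosis genes were −0.08 in KMS-11, −0.28 in RPMI8226 (19 falls), 0.20 in U266 (13 rises) and −0.23 in IM-9 (20 falls), and the median of the difference, KMS-11 minus the others, was 0.04. GINS2 fell by 0.68 in KMS-11 and 0.73 in IM-9 and rose by 0.44 in U266, and CDC6 fell by 0.47 in KMS-11 and 0.61 in RPMI8226 and rose by 0.55 in U266. For cholesterol synthesis the medians were −0.30 in KMS-11, 0.66 in RPMI8226, −0.41 in U266 and −1.26 in IM-9, so that KMS-11 lay between the other lines, and 1 member was higher and 2 were lower than their mean. HMGCS1 had an effect of −0.61 in KMS-11, 2.07 in RPMI8226, −1.0 in U266 and −2.36 in IM-9. For interferon genes the medians were 0.08 in KMS-11, −0.03 in RPMI8226, −0.59 in U266 and −0.10 in IM-9. In U266 23 of the 35 tested members fell. Of the 35, 13 had a higher effect in KMS-11 and 1 a lower one, against 3.7% and 5.82% of all tested genes. Of the 39 on the array, 23 had a KMS-11-HR mean and 22 a KMS-11 mean above the filter level. Dim members could enter the test through lines where they are high. That favours a difference, so the count of 13 is only a description. Among the interferon genes IFI44, under the filter level on all 4 KMS-11 arrays, differed from the other lines by 1.28 ± 0.12. Its effects were 0.40 in KMS-11, 0.06 in RPMI8226, −1.34 in U266 and −1.36 in IM-9. IRF4 fell in KMS-11 and rose by 0.36 in RPMI8226 and 0.34 in U266 (difference −0.47 ± 0.07, adjusted p = 0.00071). The mean of the other lines includes IM-9, where IRF4 did not rise. The difference therefore does not set KMS-11 apart from every other line.

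**Figure D5:**
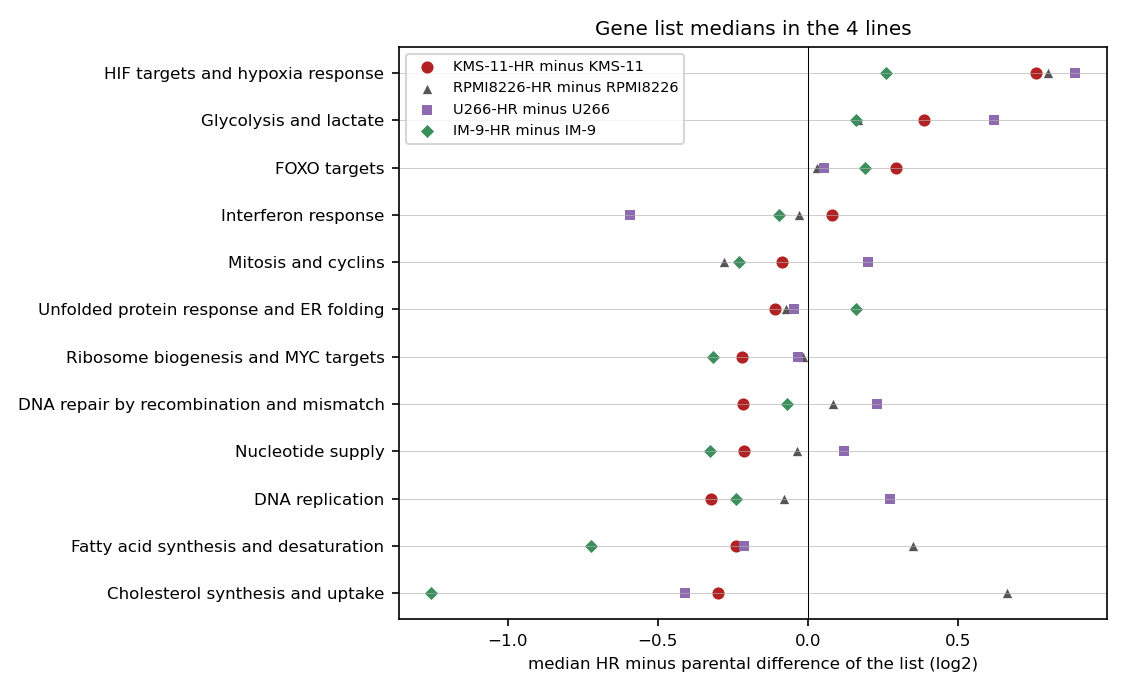
Each marker is the median log2 difference, HR at 1% oxygen minus parental at 20%, of the tested members of a list, with KMS-11 as circles and the other lines as triangles, squares and diamonds. For DNA replication KMS-11 lies lowest at −0.32 and U266 highest at 0.28, and for cholesterol synthesis KMS-11 lies between IM-9 and RPMI8226.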

How the data were processed

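Total RNA of 4 lines was measured on Affymetrix arrays, and the KMS-11-HR and KMS-11 arrays are described here. The authors deposited 1 log2 intensity per array for each of 33297 probe sets. Per the submitters' processing notes they used Affymetrix Expression Console 1.3.0, and the background correction and normalization are not given in the sources used here. Probe sets were named by GEO's table of the Human Gene 1.0 ST platform, while the series' design text speaks of Human Gene 2.0 ST and of stromal cell samples not used here. Of the probe sets, 19460 had 1 symbol, 1754 several and 12083 none here, and 19429 of the 19460 were brought to current symbols of RefSeq GRCh38.p14 by Entrez identifier. For 769 of the 18417 genes the brightest of several probe sets was kept. Whether near-identical genes share probes was not examined.

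All 16 arrays were fitted as 8 groups with 1 shared spread in R 4.3.3 and limma 3.58.1 (lmFit, eBayes, 2-sided), with p-values adjusted by the Benjamini-Hochberg method over 12639 genes at a threshold of 0.05. "Rose" and "fell" are used of genes past that threshold. The number of arrays limits the precision. On simulated data with 200 changed genes, changes of 1 log2 unit were all recovered (100%). So were 86% of rises and 74% of falls of 0.5 units, and 0.088% of unchanged genes were called. The simulated arrays varied independently with the fitted spread. Effects shared by arrays or by cultures were not simulated, so these shares do not cover them. The 61 gene lists and the genes compared were chosen with earlier results of these data known. Genes were named by a rule. It took the 20 largest rises and falls among genes called whose arrays did not overlap between conditions. It also took all tested members of lists of up to 12, otherwise up to 8 members past the threshold and 3 bright members not past it. The 10 largest differences from the other lines in each direction were added. Alternatives were another normalization, filter, probe set summary, spread model, a replicate block, and each KMS-11 array left out.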

Additional observations from a re-analysis of the deposited data

Results flagged for a closer look

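The genes below had an HR effect in KMS-11 that differed from the mean effect of RPMI8226, U266 and IM-9, by limma's test of that difference. They are the 10 largest differences in each direction. The effect of 1 line can move that mean, so a difference need not set KMS-11 apart from every other line. For 9 of the 20, LINC00052, IFIT3, SNORD113-4, IFI44, EGLN3, SSX3, TC2N, PAGE1 and SSX1, all 4 KMS-11 arrays were under the filter level. These 9 entered the test through other lines, where they are high in some arrays, so that way of entry favours a difference and their values are a description. The effect was higher in KMS-11 for CR2, a complement receptor of B cells, by 2.21 ± 0.11 (SE) log2 units. Its effect was 0.34 in KMS-11 and −0.03 in U266, against −3.58 in RPMI8226 and −1.98 in IM-9. For LINC00052 the difference was 1.89 ± 0.17. MME, the metalloprotease CD10, differed by 1.61 ± 0.15, at 0.67 in KMS-11, −2.82 in RPMI8226, 0.12 in U266 and −0.11 in IM-9. Its rise in KMS-11 was lost without KMS-11-HR replicate 1 or KMS-11 replicate 1. The interferon-induced genes IFIT3 and IFI44 differed by 1.54 ± 0.17 and 1.28 ± 0.12. IFIT3 did not pass in KMS-11 (adjusted p = 0.363) and had effects of −1.81 in U266 and −1.945 in IM-9. DDIT4 differed by 1.48 ± 0.11 and CALCRL by 1.47 ± 0.21. TSPAN7, a tetraspanin, differed by 1.38 ± 0.13, with effects of −0.40 in KMS-11, −4.28 in RPMI8226, −0.25 in U266 and −0.82 in IM-9. The KMS-11 calls of CR2 and TSPAN7 were lost whichever of the 4 KMS-11 arrays was left out, and that of IFI44 in 3 of the 4 fits. SNORD113-4, a small nucleolar RNA, differed by 1.32 ± 0.12 and ITM2A by 1.17 ± 0.14. Neither passed in KMS-11, where their adjusted p was 0.431 and 0.795, and the effect furthest from 0 in another line was −4.12 in RPMI8226 for SNORD113-4 and −3.44 in IM-9 for ITM2A.

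The effect was lower in KMS-11 for EGLN3, by −2.80 ± 0.11, and for MYOF, by −2.13 ± 0.09. The cancer-testis genes SSX3, PAGE1 and SSX1 differed by −1.80 ± 0.19, −1.67 ± 0.10 and −1.55 ± 0.28. They did not pass in KMS-11, and their highest effects elsewhere were 4.14 in IM-9 for SSX3, 4.87 in RPMI8226 for PAGE1 and 2.79 in U266 for SSX1. AK4 differed by −1.78 ± 0.13. TC2N differed by −1.72 ± 0.14, at −0.58 in KMS-11, a call that stayed in only 1 of the 4 fits that leave out an array, and 3.18 in IM-9. GATM, which makes the precursor of creatine, differed by −1.71 ± 0.10. Its effects were −0.47 in KMS-11, 3.79 in RPMI8226, 0.24 in U266 and −0.33 in IM-9. The KMS-11 fall of GATM was lost without KMS-11-HR replicate 2 or KMS-11 replicate 2. DPY19L2P1, a pseudogene, differed by −1.59 ± 0.24, at −0.79 in KMS-11, 0.97 in RPMI8226, 0.65 in U266 and 0.77 in IM-9, and its KMS-11 call was lost whichever array was left out. P3H2, a collagen prolyl 3-hydroxylase, differed by −1.53 ± 0.21 and did not pass in KMS-11 (adjusted p = 0.52).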

How the results depend on the processing

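No named gene past the threshold, with any of these settings, had the opposite direction in another (444 named genes tested). Without each KMS-11 array in turn, where the lone array of a condition is assumed to vary like the other groups, 132 to 149 genes rose and 216 to 254 fell, 203 to 252 had a higher and 384 to 427 a lower effect than the other lines, and 91 of 218 named genes called stayed past the threshold each time. With array weights 657 rose and 1426 fell, and 783 had a higher effect than the other lines. The other settings kept these 4 counts within 1.5 times, from 229 rises (array medians made equal) to 372 (intensity trend) and from 506 falls (no filter) to 1003 (intensity trend). With quantile normalization 359 rose and 554 fell, and with equal medians 229 and 839, against 308 and 737 as deposited, so the share of rises moved with the scaling, while the median over all tested genes stayed between −0.05 and 0.00. Near 0, list medians changed sign 14 times under these 2 scalings, none of them for a list given a direction above. With the replicate number as a block, 289 rose and 650 fell, and 458 effects were higher and 695 lower. Same-numbered KMS-11 arrays shared deviations with r = 0.07 across genes, and no label ties the numbers to a shared culture, so they were not taken as pairs. Differences of genes under the filter level rest on dim probes.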
